A study of Mus musculus with 8 samples.

Results

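The genes described here encode the subunits, activators, inhibitor and assembly factors of the proteasome in mouse intraepithelial lymphocytes kept with or without osteopontin. They were taken by symbol: every protein-coding gene named Psma, Psmb, Psmc, Psmd, Psme, Psmf or Psmg plus a digit, with pseudogene symbols left out. That gave 50 genes of the 52661 in the deposited tables, of which 21817 are protein-coding. Intraepithelial lymphocytes are immune cells lodged within the epithelium of the gut, here from C57BL/6 mice. They had been sorted on the leukocyte protein CD45, and all libraries come from cells cultured for 24 h at 37 °C in RPMI medium with 10% serum. The osteopontin group (4 libraries) had 2 µg/ml osteopontin, a secreted phosphoprotein and cytokine, in the medium, and the null group (4 libraries) had none. In each group the libraries are named 1, 2, A and B. Neither the age or sex of the mice nor the source of each library (1 animal, a pool, or a repeat culture) is given in the labels. The p-values therefore reflect the spread over these libraries only, some of which may be technical.

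The proteasome is the barrel-shaped protease that degrades proteins tagged with ubiquitin. Its core particle stacks outer rings of alpha subunits (Psma genes) on inner rings of beta subunits (Psmb genes), and only 3 kinds of beta subunit cut peptide bonds. The regulatory particle on its end has a base with ATPases (Psmc genes), which unfold the substrate, and a lid that removes the ubiquitin chain. In cells exposed to interferon, and constitutively in many leukocytes, newly built core particles take up Psmb8, Psmb9 and Psmb10 in place of the constitutive Psmb5, Psmb6 and Psmb7. This form, the immunoproteasome, cleaves more often behind the residues that MHC class I molecules prefer at the end of a presented peptide.

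Of the 50 genes, 49 passed the filter on low counts, and 47 of those had a mean of at least 10 TPM (a length-corrected transcript level scaled to the same total in every library). The exceptions are genes of other tissues or of other function. Psma8, the alpha subunit of testis, was not tested and had reads in 2 of 8 libraries, at 0.221 CPM (reads relative to the TMM-scaled library total, not corrected for length) in osteopontin library 2 and 0.0173 CPM in null library 1. The value in null library 1 is below the 0.0522 CPM that 3 reads make there. Psmb11, the catalytic subunit of thymic cortical epithelium, ranged from 0.188 to 1.73 CPM. Psmc3ip, which enters by its name only and encodes a factor of meiotic recombination, ranged from 0.0613 CPM in null library B to 3.71 CPM in null library 2.

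Library totals were 49108969 to 71399847 estimated reads, so 3 reads correspond to 0.0420 to 0.0611 CPM. The label was checked against marker lists. The summed level of 10 intraepithelial T cell markers (Ptprc, which encodes CD45, Cd3e, Cd3g, Cd8a, Itgae, Trac, Trdc, Cd7, Gzma and Gzmb) was 7224 to 7939 CPM with osteopontin and 7006 to 7835 CPM without. The sum of 8 B cell markers was 357.0 CPM in osteopontin library B and 651.0 to 978.5 CPM in the other osteopontin libraries, against 762.7 to 1066 CPM in null. The sum of 8 fibroblast markers was 304.7 CPM in null library 1 and 163.4 CPM in null library A, and at most 24.8 CPM elsewhere. The sum of 8 endothelial markers was 59.1 to 132.7 CPM with osteopontin and 78.3 to 135.6 CPM in null, most of it Pecam1. Cdh5, a more specific one, had 14.7 to 16.4 CPM in osteopontin library B and null libraries 2 and B and at most 2.19 CPM in the other 5. The sum of 9 epithelial markers was 301.1 to 360.8 CPM with osteopontin and 291.4 to 366.5 CPM without, most of it Cdh1 and Epcam. The enterocyte gene Fabp2 had 10.3 and 14.3 CPM in the osteopontin and null libraries named B and at most 2.25 CPM in the other 6. The sum of 6 plasma cell markers was 3964 to 8629 CPM with osteopontin and 3141 to 9460 CPM in null, and that of 8 myeloid markers 78.6 to 172.8 and 86.3 to 167.0 CPM. No marker of these lists was under 3 reads in all 8 libraries. In bulk RNA, fewer cells of a type and less RNA per cell cannot be told apart. The part of these other cells in the levels below was not tested.

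The catalytic subunits are the point where both forms of the particle differ, so their coding sequences are shown first. Each immunoproteasome gene is a relative of the constitutive gene whose place it takes. Psmb8 and Psmb5 share 66.1% of their aligned coding bases, with a longest shared run of 18 bases. For Psmb9 and Psmb6 the identity was 65.8% with a longest run of 11 bases, and for Psmb10 and Psmb7 it was 62.6% with a run of 15. These runs are far shorter than those of Psme2 and Psme2b below. The lines give the 90 bases of each coding sequence in which a pair is most alike (GENCODE M21 transcripts), with the bases that differ within the pair in capitals, and these number 19, 22 and 22 in the 3 pairs.
Psmb8: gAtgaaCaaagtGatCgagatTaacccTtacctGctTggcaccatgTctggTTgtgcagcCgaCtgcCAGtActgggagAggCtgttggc
Psmb5: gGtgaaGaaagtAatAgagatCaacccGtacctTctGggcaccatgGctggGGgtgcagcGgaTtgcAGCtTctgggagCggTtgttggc
Psmb9: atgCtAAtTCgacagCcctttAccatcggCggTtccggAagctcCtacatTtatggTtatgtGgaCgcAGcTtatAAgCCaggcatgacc
Psmb6: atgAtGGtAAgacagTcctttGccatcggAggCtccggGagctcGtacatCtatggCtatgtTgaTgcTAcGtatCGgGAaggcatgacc
Psmb10: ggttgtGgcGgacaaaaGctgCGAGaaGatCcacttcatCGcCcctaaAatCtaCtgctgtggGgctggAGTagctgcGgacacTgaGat
Psmb7: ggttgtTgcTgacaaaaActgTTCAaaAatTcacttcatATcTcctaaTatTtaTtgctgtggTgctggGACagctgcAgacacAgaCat

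Psmb8, the immunoproteasome's chymotrypsin-like subunit, had the highest level of the 6 catalytic genes and was the proteasome gene with the lowest p between the groups. In the osteopontin libraries 1, 2, A and B its level was 210.2, 200.8, 194.7 and 178.7 CPM. In the null libraries it was 212.5, 227.6, 212.0 and 232.9 CPM. All 4 osteopontin libraries lay below all 4 null libraries, though osteopontin library 1 and null library A differ by less than 2 CPM. The means were 196.1 ± 13.3 and 221.2 ± 10.6 CPM (SD, n = 4 each). The log2 fold change (osteopontin over null) was -0.17 with a standard error of 0.07 and a 95% interval of -0.32 to -0.03. The p of edgeR's quasi-likelihood test was 0.0191 before adjustment and 1.00 after Benjamini-Hochberg adjustment over 18631 genes, so Psmb8 was not called. Its fold change was below 0 under all 19 other settings tried, from -0.23 to -0.11, and no adjusted p was under 0.48. Since the groups lay apart in CPM, the settings that only left out libraries could hardly have changed that sign. It was -0.13 without osteopontin library B, where B cell markers are lowest, and -0.23 without null libraries 1 and A, where fibroblast markers are highest. In TPM the groups overlapped: osteopontin library 1 had 324.5, above null libraries 1, 2 and A at 320.5, 322.5 and 314.1.

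The other immunoproteasome genes overlapped between the groups. Psmb9, the caspase-like position's replacement, had 83.1, 75.6, 74.3 and 71.8 CPM with osteopontin (libraries 1, 2, A, B) and 79.2, 89.4, 84.7 and 73.0 CPM in null. Its log2 fold change was -0.10 ± 0.09 (SE). Psmb10, which replaces the trypsin-like subunit, had 81.8, 76.7, 72.4 and 80.7 CPM with osteopontin and 80.4, 83.5, 78.5 and 75.2 CPM in null. Its log2 fold change was -0.03 ± 0.08 (SE), the nearest to 0 of the 3. The intervals limit a change to between -0.28 and 0.09 for Psmb9 and between -0.20 and 0.14 for Psmb10.

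The constitutive catalytic genes overlapped as well, with osteopontin library B lowest for each. Psmb5, the chymotrypsin-like subunit, had 60.9, 51.7, 49.8 and 39.3 CPM with osteopontin and 47.6, 63.3, 49.5 and 60.7 CPM in null, a log2 fold change of -0.13 ± 0.13 (SE). Psmb6, the caspase-like subunit, had 69.5, 74.1, 71.4 and 53.3 CPM with osteopontin and 62.1, 67.4, 64.5 and 69.8 CPM in null (0.02 ± 0.10). Psmb7, the trypsin-like subunit, had 45.7, 52.9, 56.7 and 40.6 CPM with osteopontin and 50.9, 47.8, 56.0 and 52.3 CPM in null (-0.08 ± 0.11). The plot of the 6 catalytic genes shows Psmb8 alone apart from the rest on this scale, which is not corrected for length.

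**Figure D1:**
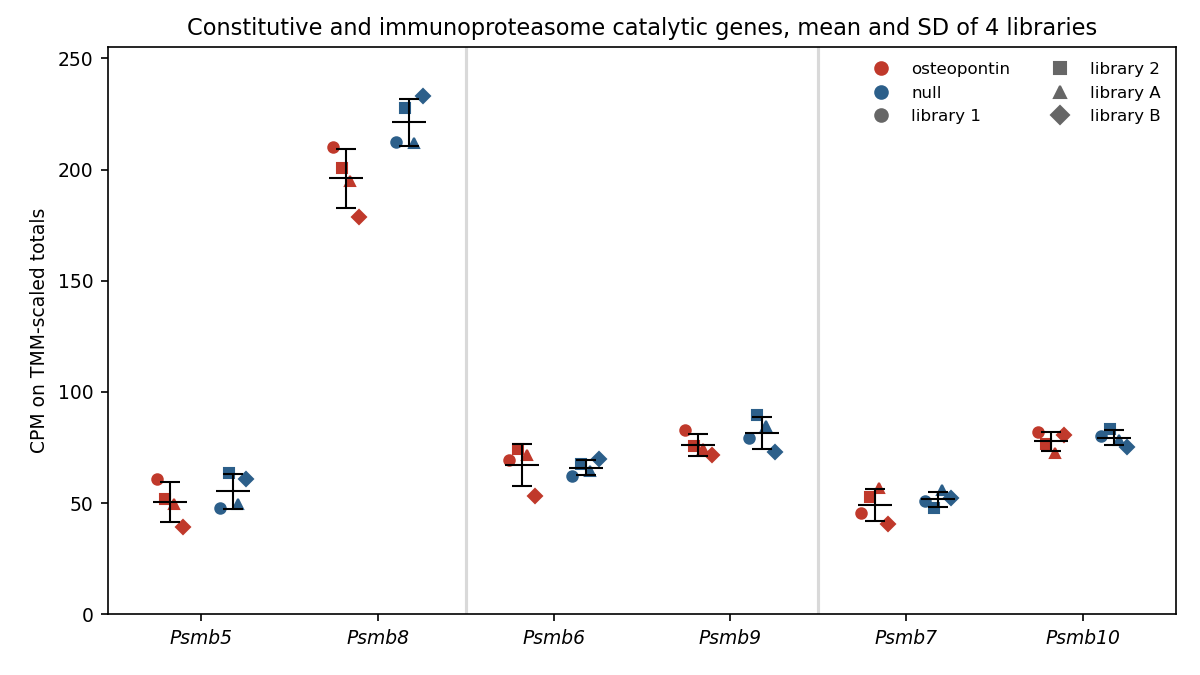
Levels of the 3 constitutive genes and the immunoproteasome genes that replace them, in CPM on TMM-scaled totals (y axis), with 1 point a library, red for osteopontin and blue for null, and the marker shape giving the library name. Black bars are mean and SD of 4 libraries. Psmb8 sits at 178.7 to 232.9 CPM, and osteopontin library B is the lowest osteopontin library for Psmb8, Psmb9, Psmb5, Psmb6 and Psmb7.

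Compared per length, in TPM over all 8 libraries, the catalytic genes were ordered Psmb8 (mean 309.7, range 262.9 to 352.2), Psmb6 (161.8, 133.0 to 180.3), Psmb10 (140.3, 128.2 to 151.7), Psmb9 (111.3, 94.0 to 131.8), Psmb5 (110.6, 86.4 to 130.8) and Psmb7 (74.8, 62.7 to 83.4). Psmb8 at the top and Psmb7 at the bottom overlapped with no other of the 6. Each of the remaining 4 overlapped with its neighbour in the order. Within a library, Psmb8 exceeded Psmb5 in 8 of 8 libraries, by 2.51 to 3.23 times. Psmb10 exceeded Psmb7 in 8 of 8, by 1.54 to 2.27 times. Psmb9 stood below Psmb6 in 8 of 8 libraries, at 0.545 to 0.990 of its level. Summed, the 3 immunoproteasome genes had 545.7 ± 35.0 TPM with osteopontin and 576.8 ± 14.2 TPM in null (SD, n = 4 each), and the constitutive genes 344.0 ± 41.4 and 350.3 ± 24.0 TPM. The ratio of the sums was 1.41 to 1.90 over the 8 libraries, and the highest and the lowest ratio were both in the osteopontin group, in libraries B and A. All transcripts of each gene are counted in these sums, and their ratio over protein-coding transcripts only is not given here.

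The ratios did not differ between the groups beyond their spread. For Psmb8 over Psmb5 the log2 difference (osteopontin minus null) was -0.06, with a 95% interval of -0.30 to 0.19. For Psmb9 over Psmb6 it was -0.03 (-0.58 to 0.52) and for Psmb10 over Psmb7 it was 0.10 (-0.25 to 0.46). Exact permutation tests over the 70 arrangements of the libraries (two-sided, smallest possible p 0.0286) gave p = 0.571, 0.886 and 0.600, and 0.886 for each after Benjamini-Hochberg adjustment over the 3 ratios. These tests and intervals took the libraries as unpaired, although same-named libraries deviated together across genes. The wide interval of Psmb9 over Psmb6 goes with osteopontin library B, where the ratio was 0.990, and osteopontin library A, where it was 0.545. Without osteopontin library B the difference was -0.21.

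**Figure D2:**
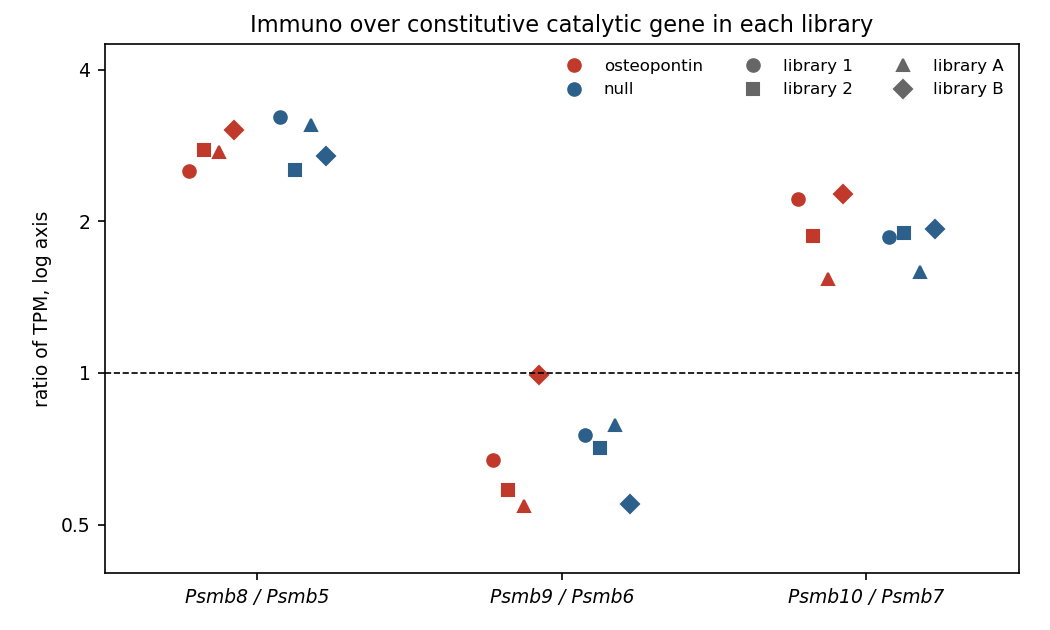
Ratio of TPM of each immunoproteasome gene to the constitutive gene it replaces (y axis, log scale), with 1 point a library, red for osteopontin and blue for null, and the dashed line at equal levels. Psmb8 over Psmb5 and Psmb10 over Psmb7 lie above 1 in all 8 libraries, Psmb9 over Psmb6 lies below 1 in all 8, and the groups overlap in each ratio.

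How these levels read depends on which transcripts are counted. Salmon had assigned part of the reads of these genes to annotated transcripts that keep an intron or are marked for nonsense-mediated decay, and only the protein-coding class is annotated to give the subunit. Of Psmb9's reads, 40.1 to 51.3% were assigned to protein-coding transcripts over the 8 libraries, the lowest share of the 6 catalytic genes. The share was 66.1 to 83.1% for Psmb10, 71.6 to 87.3% for Psmb8, 78.5 to 86.7% for Psmb6, and at least 98.6% for Psmb7 and Psmb5. Counted over protein-coding transcripts only, Psmb8 still exceeded Psmb5 in 8 of 8 libraries (2.28 to 2.92 times), and Psmb9 was at 0.319 to 0.746 of Psmb6. Psmb10 exceeded Psmb7 in 4 of 8 libraries (0.799 to 1.34 times), so the order of that pair rests on the transcripts counted. Psmb8's retained-intron transcript took 28.4% of its reads in osteopontin library B and 12.7 to 18.1% in the other 7. Psmb8's log2 fold change over protein-coding transcripts only was -0.22.

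By median over the libraries, Psma3, an alpha ring subunit, had the smallest coding share of the 47 genes with at least 10 TPM, at 7.37 to 28.8%, with 46.4 ± 7.04% of its reads in osteopontin and 47.4 ± 6.65% in null libraries assigned to 1 retained-intron transcript. Of the 47 genes with at least 10 TPM, 28 had a median of at least 90% of reads in protein-coding transcripts, 12 had 75 to 90% and 7 had less. Over all 50 genes the protein-coding share was 86.9 ± 1.23% with osteopontin and 88.1 ± 1.06% in null, and the groups overlapped. Retained-intron transcripts took 10.6 ± 0.903% and 10.1 ± 0.886%, against 8.0 ± 0.43% and 7.6 ± 0.45% over all protein-coding genes. Osteopontin library B had the lowest protein-coding share of these genes, 85.2%, and also the lowest over all protein-coding genes, 85.1%. Reads common to several transcripts are divided by a model, so the shares are estimates.

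**Figure D3:**
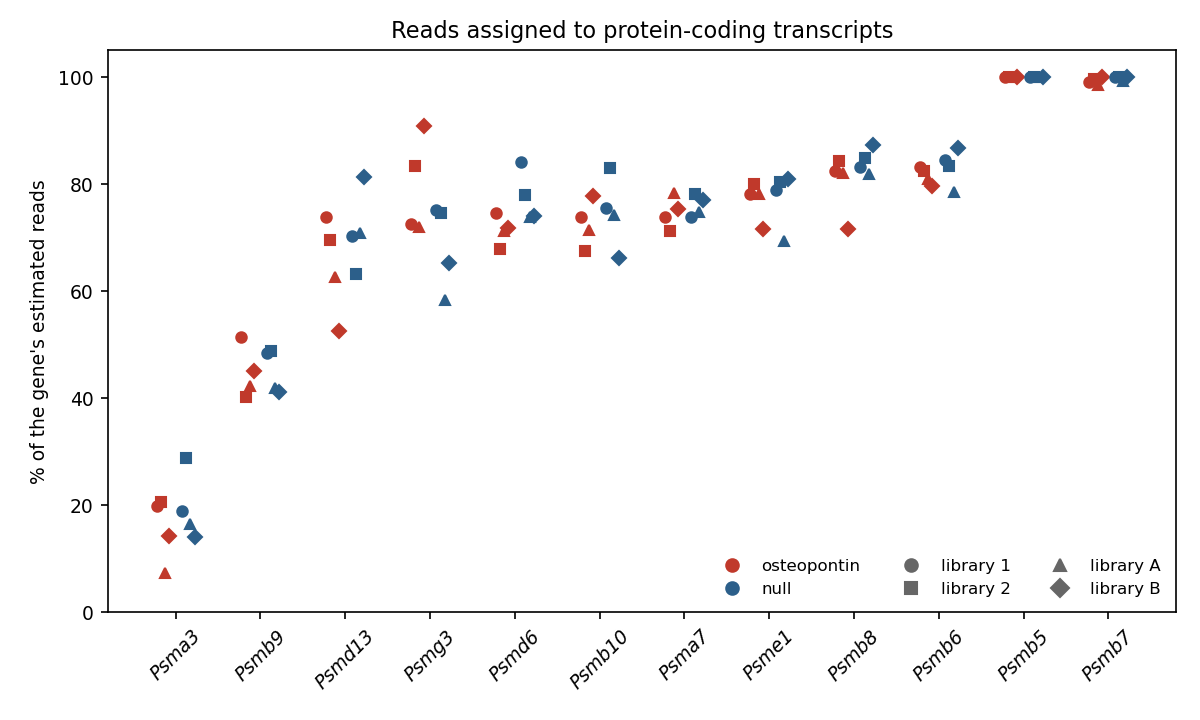
Share of a gene's estimated reads assigned to transcripts annotated as protein-coding (y axis, percent), for 12 proteasome genes, with 1 point a library. Psma3 and Psmb9 lie lowest, Psmb5 and Psmb7 near 100%, and the groups overlap for each gene shown.

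Position also groups some of these genes. In GENCODE M21 (GRCm38), Psmb9 (chr17:34181987-34187764, minus strand), the peptide transporter gene Tap1 (chr17:34187553-34197225, plus strand), Psmb8 (chr17:34197721-34201454, plus strand) and Tap2 (chr17:34203527-34216321, plus strand) follow each other in the MHC region. Psmb9 and Tap1 overlap at their starts on opposite strands. The libraries were stranded per the labels, and whether the counting used strand is not given in the sources used here. Tap1, next to Psmb8, had 278.2, 250.5, 275.5 and 268.7 CPM with osteopontin and 271.4, 260.0, 272.7 and 259.5 CPM in null, a log2 fold change of 0.01 ± 0.06 (SE). Psmb10 lies apart on chromosome 8 (105935735-105938444, minus strand). Of the constitutive genes, Psmb5 (chr14:54614119-54618022, minus strand) neighbours the thymic Psmb11 (chr14:54621433-54629556, plus strand), while Psmb6 is on chromosome 11 and Psmb7 on chromosome 2.

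The alpha ring forms the gate of the core particle. All 7 of its genes had fitted log2 fold changes below 0, from -0.18 for Psma3 to -0.01 for Psma7 and Psma5, none was called and none had groups apart. Under the other settings 5 to 7 of the 7 were below 0, with 5 without osteopontin library B, where Psma5 and Psma6 were above it, and 5 without both libraries named B. Psma3 had 74.4, 58.9, 57.6 and 69.9 CPM with osteopontin and 72.6, 75.6, 74.6 and 71.7 CPM in null, so osteopontin libraries 2 and A lay below the rest. Psma1 had 73.0, 70.1, 78.6 and 82.4 CPM with osteopontin and 79.9, 84.2, 79.3 and 89.7 CPM in null (-0.13 ± 0.08, SE). These subunits sit in the ring in equal numbers. Their levels in TPM over all transcripts ranged 4.63-fold, from 51.0 for Psma5 to 236.1 for Psma7. The share of reads in protein-coding transcripts was 71.2 to 78.4% for Psma7 and at least 98.8% for Psma5. The TPM ranges below also count all transcripts, and ranges over protein-coding transcripts only are not given here. The structural beta subunits, which do not cut, had 88.0 TPM (Psmb2) to 202.6 TPM (Psmb1). Psmb3 was fitted higher with osteopontin, at 79.5, 77.9, 70.8 and 70.3 CPM against 70.5, 75.1, 63.8 and 62.2 CPM (0.14 ± 0.09, SE), with overlapping groups. Psmb4 had 84.6 CPM in osteopontin library B and 113.7 to 131.2 CPM in the other 7. Without that library its log2 fold change was 0.02 in place of -0.09.

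In the base, all 6 ATPase genes were fitted lower with osteopontin, from -0.19 for Psmc4 to -0.01 for Psmc2, with none called. The count was 4 of 6 over protein-coding transcripts only, without null library B and without osteopontin library 2, where Psmc2 and Psmc6 were above 0. Psmc4 had 71.3, 57.5, 72.6 and 74.9 CPM with osteopontin and 74.8, 78.1, 68.2 and 94.8 CPM in null, the extremes being osteopontin library 2 and null library B. Psmc5 had 52.1, 45.7, 51.1 and 41.0 CPM with osteopontin and 53.5, 54.7, 50.9 and 55.8 CPM in null (-0.18 ± 0.10, SE). The ATPases had 63.9 TPM (Psmc5) to 142.7 TPM (Psmc3), a 2.23-fold range. Of the scaffold and ubiquitin-binding subunits of the base, Psmd2 had log2 fold change 0.00, Psmd1 0.02 and Psmd4, a ubiquitin receptor, -0.06. In TPM, Psmd1 varied least of all 50 genes, at 40.9 to 45.3 (coefficient of variation 3.34%). In CPM it ranged more widely, from 76.4 to 92.6.

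The lid had 6 of 8 genes fitted lower. Psmd8 was at -0.14 ± 0.08 and Psmd7 at -0.16 ± 0.10 (log2 fold change, SE). Psmd7 had 60.9, 67.5, 50.7 and 50.3 CPM with osteopontin and 65.1, 64.3, 64.3 and 62.7 CPM in null. The null libraries lay close together, with osteopontin libraries 1, A and B below them and osteopontin library 2 above. Psmd14, the enzyme that cuts off the ubiquitin chain, had 35.7 to 38.8 CPM with osteopontin and 35.6 to 41.0 CPM in null (-0.05 ± 0.10). Psmd11 had the largest fitted increase among genes of at least 10 TPM, 0.16 ± 0.13, and 116.8 CPM in osteopontin library B against 68.8 to 87.9 CPM in the other 7. It was fitted below 0 with effective length as an offset and without both libraries named B. Lid levels ran from 45.5 TPM for Psmd14 to 131.9 TPM for Psmd8.

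The activators bind the core particle in place of the regulatory particle. Psme1 and Psme2 together form the interferon-inducible activator, Psme3 forms a nuclear one, and Psme4 is a large monomeric one. Psme2 was the other proteasome gene whose groups did not overlap in CPM: 86.8, 88.5, 90.2 and 90.6 with osteopontin and 94.5, 91.1, 92.0 and 111.2 in null. The gap between the groups was 90.6 to 91.1 CPM, and null library B stood above the rest. The log2 fold change was -0.13 ± 0.08 (SE) with an unadjusted edgeR p of 0.131. Without null library B it was -0.06. In TPM the groups overlapped, since null library 1 was lowest at 242.6 and null library B highest at 422.3.

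Psme2 cannot be read alone. Its coding sequence and that of Psme2b, a gene on chromosome 11, are identical at 715 of 720 bases (99.3%), with a shared run of 311 bases, so the division of reads between them is uncertain. The 90 bases with the most differences are shown, with the 3 that differ in capitals.
Psme2: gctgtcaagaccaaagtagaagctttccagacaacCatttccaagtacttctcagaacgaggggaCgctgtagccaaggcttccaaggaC
Psme2b: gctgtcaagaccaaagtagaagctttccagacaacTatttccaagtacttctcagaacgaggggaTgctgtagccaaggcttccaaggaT
Psme2b had 53.2, 52.3, 53.8 and 60.8 CPM with osteopontin and 60.7, 55.0, 62.8 and 54.8 CPM in null (-0.08 ± 0.09, SE). The sum of both genes was 140.0, 140.8, 143.9 and 151.3 CPM with osteopontin and 155.1, 146.2, 154.8 and 166.0 CPM in null. The groups of the sum overlapped through osteopontin library B and null library 2, so the separation seen in Psme2 alone does not hold for the sum. Psme1 was at 148.2 ± 10.9 and 158.8 ± 4.75 CPM (SD, n = 4 each), a log2 fold change of -0.10 ± 0.07 (SE). Psme3 (0.07 ± 0.08) and Psme4 (0.06 ± 0.09) were fitted higher. Per length, Psme2 at 312.4 TPM and Psme1 at 260.2 TPM stood above Psme3 at 72.1 and Psme4 at 28.7 TPM. The order of Psme2 and Psme1 depends on the measure. In CPM Psme2 was the lower one, with means of 89.0 with osteopontin and 97.2 in null. Psme2's TPM includes the retained-intron transcript of 185 bases, where few reads make a high TPM. Psmf1, the inhibitor that binds the ends of the core particle, had 28.1 TPM and a log2 fold change of 0.00 ± 0.12.

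The assembly chaperones, which guide rings and base together and leave the finished particle, were the least abundant working group, at 16.2 TPM (Psmg1) to 56.2 TPM (Psmg2). Their median coefficient of variation was 18.1%, against 9.97% for the alpha ring. Psmd5, a chaperone of the base, had 55.2, 56.3, 37.7 and 40.8 CPM with osteopontin and 53.0, 52.6, 53.9 and 57.7 CPM in null, with osteopontin libraries A and B below the other 6. Its log2 fold change was -0.19 ± 0.13 (SE). Psmd9 was at 0.12 ± 0.12. The fold changes of the other 5 lay between -0.14 and 0.05.

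**Figure D4:**
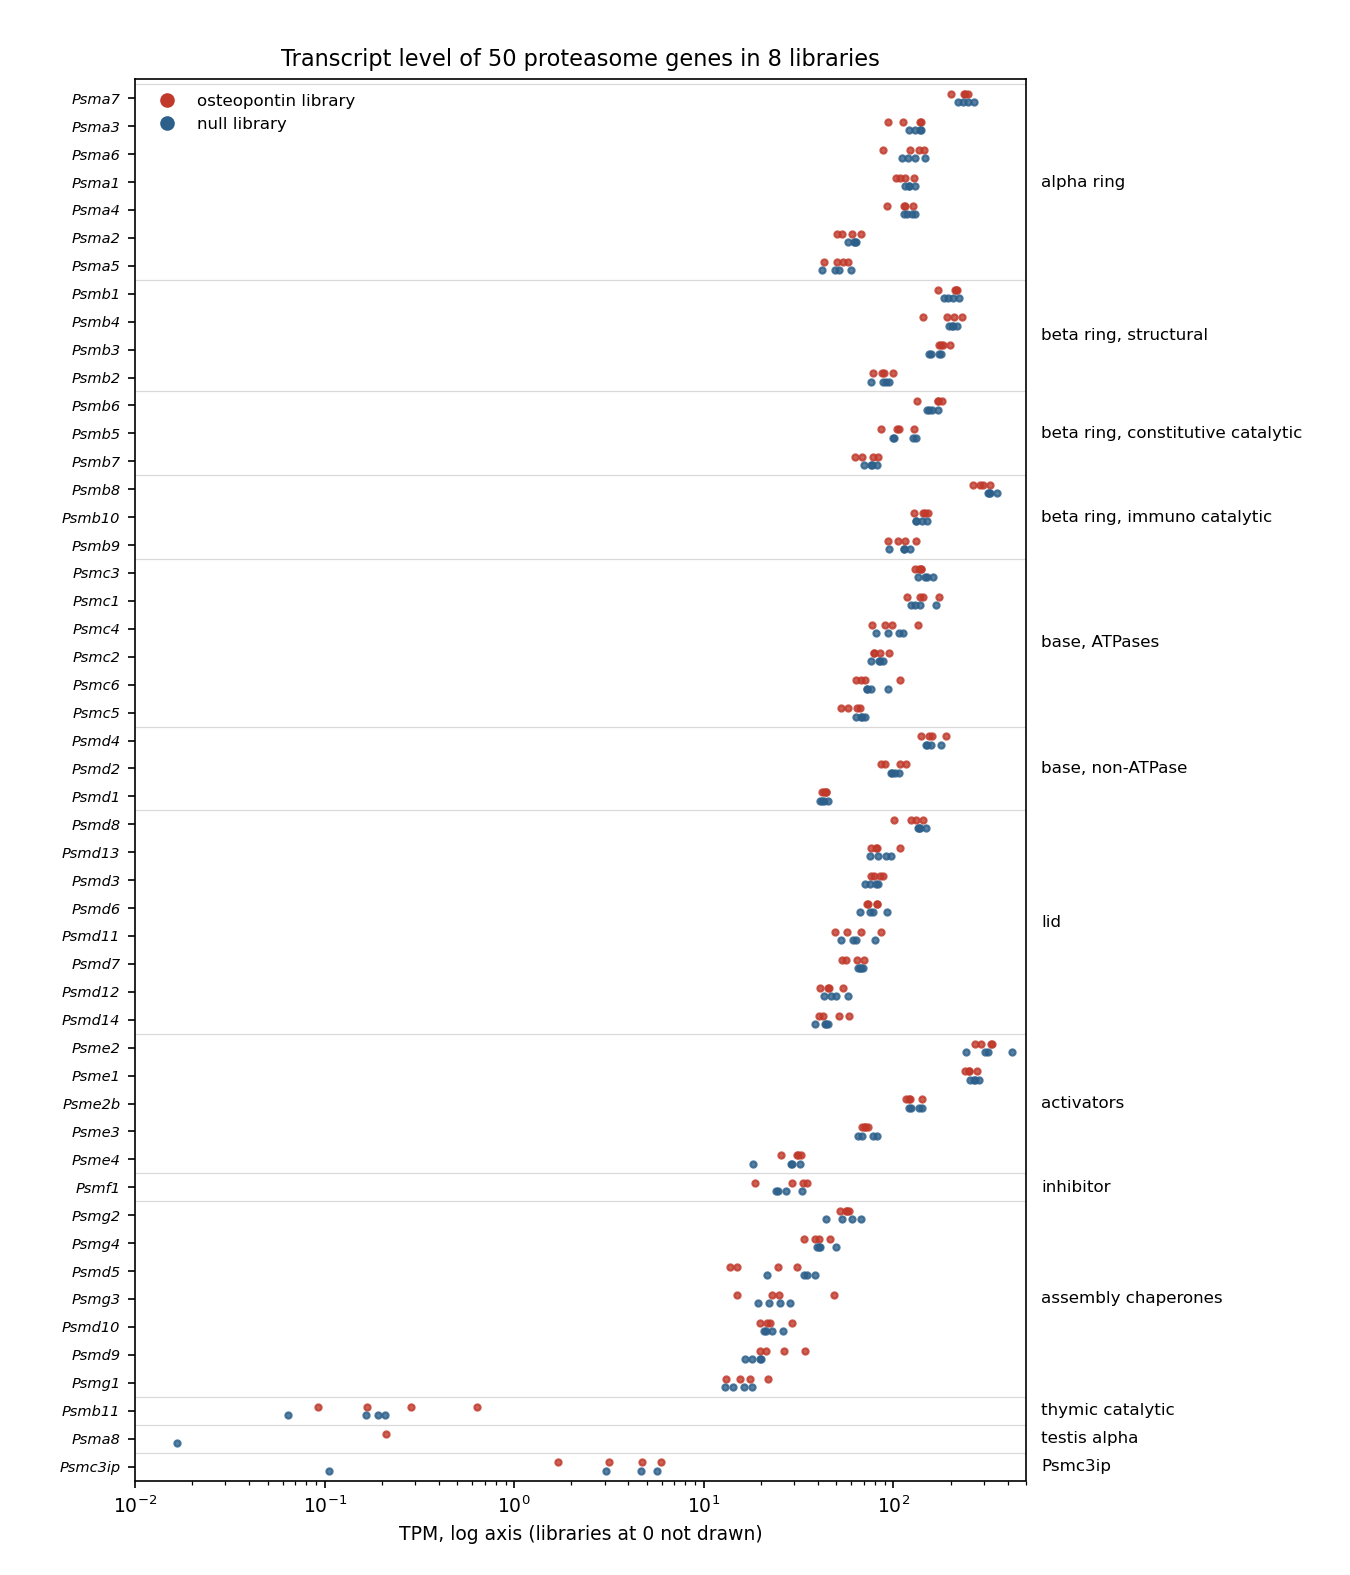
TPM of each of the 50 genes (x axis, log scale), by role, with 1 point a library, red for osteopontin and blue for null, and libraries at 0 not drawn. Psme2 and Psmb8 are highest, assembly chaperones lie mostly below the rings, and Psmb11, Psma8 and Psmc3ip lie at the far left. Psme2's TPM includes a retained-intron transcript of 185 bases, and in CPM Psme2 is below Psme1.

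Set against all genes, the share of proteasome genes that differed between the groups was near the background. Of the 49 tested, 0 were called at an adjusted p under 0.05 by edgeR, where 0% of all 18631 tested genes were called, and DESeq2 and limma also called 0 of them (DESeq2 called 0.262% of all genes). At an unadjusted p under 0.05, 1 of 49 passed (Psmb8), which is 2.04% against 3.93% of all genes. Both directions are in that share: 1.85% of all genes passed higher and 2.08% lower. The groups did not overlap for 2 of 49 (Psmb8 and Psme2, both lower), or 4.08% against 3.47% of all genes, which are 1.89% higher and 1.58% lower. In direction, 36 of 49 were fitted lower, 73.5% against 49.9% of all genes, with a median log2 fold change of -0.06 against 0.00. The 49 genes share their libraries and are not independent. In null libraries 2 and B their median level lay 0.08 above the mean of all libraries on the log2 scale, and in osteopontin library A it was at -0.07. The count fitted lower was 32 to 40 under the other settings, where 47.9 to 51.3% of all genes were fitted lower.

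The intervals show how large a change could have gone undetected. At a mean of 5 CPM or more there were 47 of these genes, and 29 (61.7%) had a 95% interval wholly between 20% lower and 25% higher. Of all 10616 genes above that cut, 41.2% did. The sets share the cut but were not matched for level. Within 1.5-fold were 45 of 47 (95.7%, against 76.1%), the exceptions being the chaperones Psmg1 and Psmg4, and within 2-fold were all 47, against 93.7%. The median standard error was 0.10 for these genes and 0.12 for all genes above the cut.

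**Figure D5:**
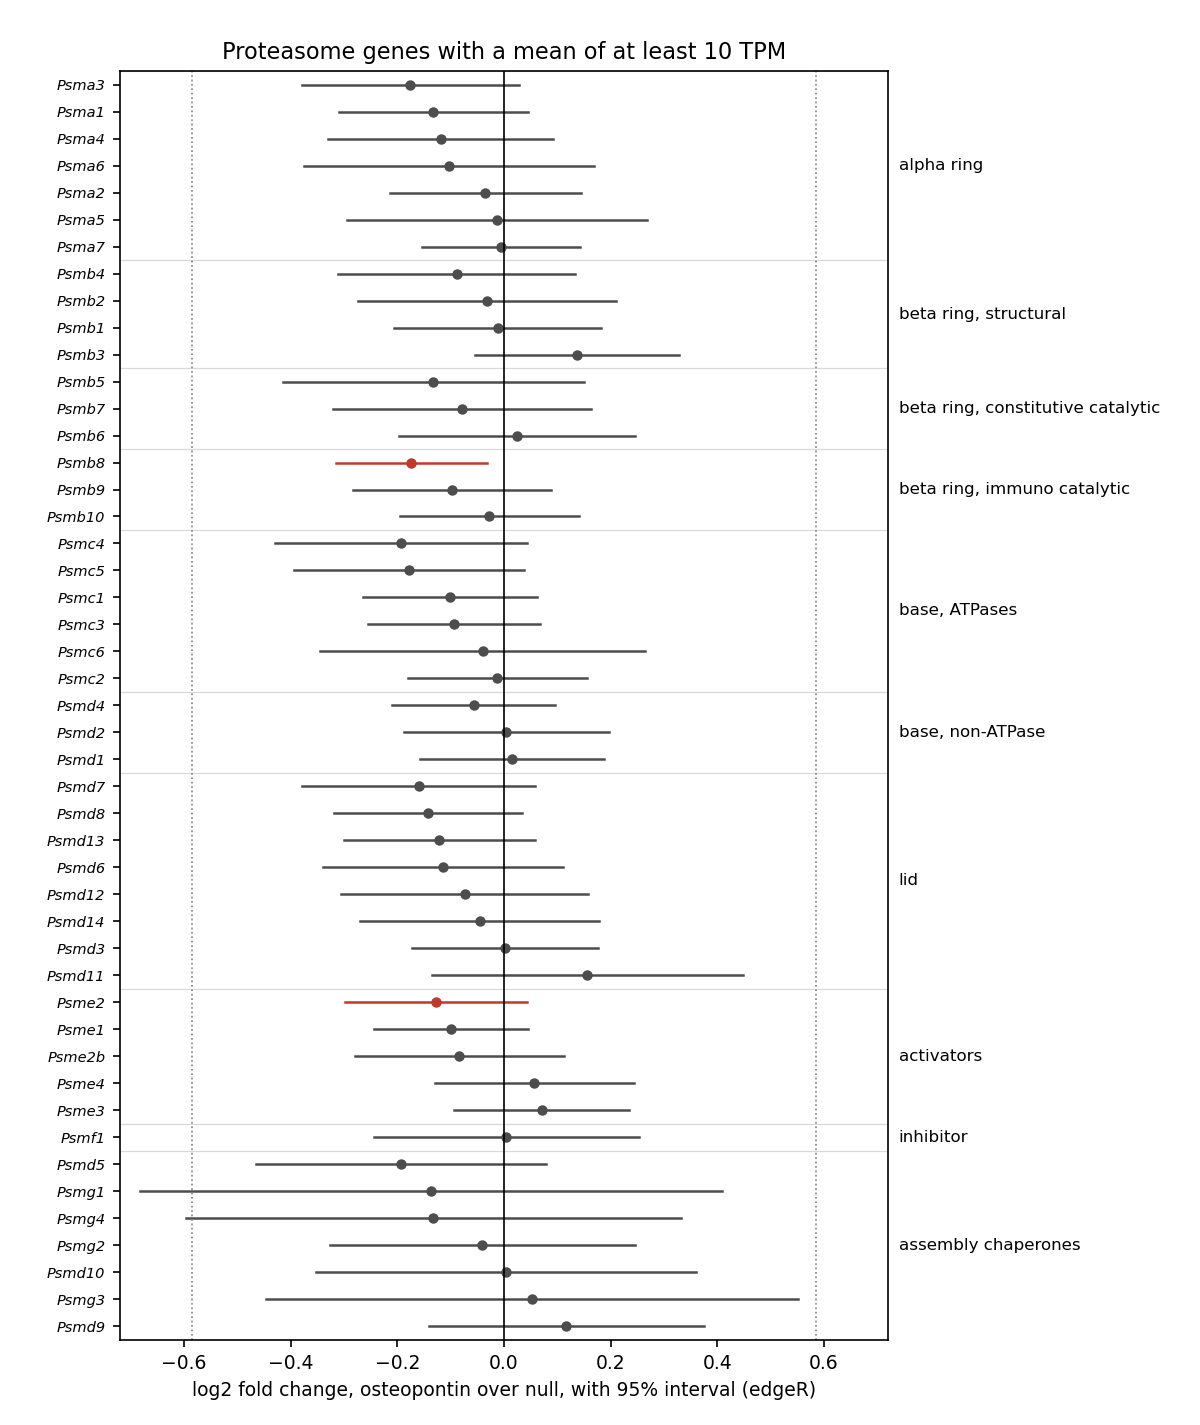
Log2 fold change (x axis, osteopontin over null) with its 95% interval from edgeR for the 47 genes of at least 10 TPM, by role, with dotted lines at 1.5-fold and red for Psmb8 and Psme2, whose groups did not overlap in CPM. Psmb8 is the only gene shown whose interval leaves out 0, and only the intervals of Psmg1 and Psmg4 cross a dotted line.

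Genes that feed the proteasome, use its products or induce it were taken from 5 lists of 62 genes in all, of which 61 were tested. None was called by edgeR. An unadjusted edgeR p under 0.05 was found for 2, both lower, which is 3.28% against 3.93% of all genes and so near the background. Of the 61, 45 (73.8%, against 49.9% of all genes) were fitted lower, and 5 had groups that did not overlap (8.2%, against 3.47%). Irf1, a transcription factor that induces immunoproteasome genes, had 244.5, 252.6, 254.0 and 244.5 CPM with osteopontin and 273.2, 287.6, 268.1 and 296.4 CPM in null (-0.18 ± 0.06, SE; unadjusted p in edgeR 0.00838, adjusted p 1.00). Pdia3, which helps fold MHC class I, was at -0.16 ± 0.06. Both and Canx, a chaperone of MHC class I, had groups apart with osteopontin lower, and Ifng and Ufd1l, a partner of Vcp, had groups apart with osteopontin higher. All 8 B cell markers, the 7 fibroblast and the 7 endothelial markers tested were also fitted lower with osteopontin. Of the other lists, 5 of 8 epithelial, 4 of 8 myeloid, 5 of 10 intraepithelial T cell and 1 of 6 plasma cell markers tested were fitted higher. The part of these cells in the values above was not tested.

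Other genes of the interferon and MHC class I lists had overlapping groups or went the other way. Ifng, the gene of interferon-gamma, had 2.37, 3.29, 3.17 and 3.13 CPM with osteopontin and 1.56, 2.34, 1.34 and 0.0767 CPM in null. The groups did not overlap, with osteopontin libraries higher by a narrow gap, and the log2 fold change was 1.17 ± 0.70 with an unadjusted edgeR p of 0.116. The value in null library B is near the 0.0458 CPM that 3 reads make there, and it lowers the null mean. H2-K1, an MHC class I heavy chain, was at -0.02 ± 0.05. Of the 19 proteasome partners found, 14 were fitted lower, among them Pomp, the maturation factor that brings Psmb8 into the core particle, with 43.4, 41.7, 39.4 and 34.5 CPM with osteopontin and 43.6, 46.1, 42.8 and 42.0 CPM in null (-0.13 ± 0.11). Of the 9 genes listed for the transcription of proteasome genes, 6 were fitted lower (66.7%, against 49.9% of all genes). That count does not tell activators from repressors. Nfe2l1 of this list is the central factor that raises proteasome genes when the proteasome is impaired. It had 136.4, 133.2, 132.9 and 162.7 CPM with osteopontin and 122.5, 137.0, 130.6 and 151.5 CPM in null (0.06 ± 0.08). Ubd, an interferon-induced ubiquitin-like gene, had 0 reads in all libraries.

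Nfe2l1 binds antioxidant response elements, so promoters were searched for that element and for others. RefSeq windows (GRCm38.p6) of 250 bases before the gene's start were at hand for 42 of the 50 genes, in 45 windows. The letters TGACNNNGC, searched on both strands, were in 11.1% of these windows and in 10.2% of all 32851. The genes with a match were Psmb5, Psmb6, Psmc6, Psmd12 and Psmd9, and Psmb7 had no window. Psmb5 and Psmb6 each hold 1 match, in capitals in the windows below, which for Psmb5 is cut where the annotated gene begins.
Psmb5 chr14:54618023-54618245 (- strand): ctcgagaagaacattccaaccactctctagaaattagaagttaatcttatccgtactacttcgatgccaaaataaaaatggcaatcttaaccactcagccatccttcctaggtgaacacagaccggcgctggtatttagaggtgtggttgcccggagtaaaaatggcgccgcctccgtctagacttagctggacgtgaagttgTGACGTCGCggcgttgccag
Psmb6 chr11:70525107-70525356 (+ strand): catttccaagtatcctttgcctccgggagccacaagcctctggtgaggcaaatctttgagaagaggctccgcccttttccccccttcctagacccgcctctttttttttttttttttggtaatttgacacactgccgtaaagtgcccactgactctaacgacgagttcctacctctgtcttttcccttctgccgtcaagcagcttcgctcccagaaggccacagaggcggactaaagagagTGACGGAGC
The interferon regulatory factor letters (GAAA, any 2 bases, GAAA) were in 6.67% of windows of proteasome genes (Psmb3, Psmd4 and Psmd9) and 2.98% of all. The activated site TTCNNNGAA was in 4.44% (Psmb8 and Psmg1) and 7.02%. The windows of Psmb8, Psmb9 and Psmb10 lie wholly or in part within the annotated span of the gene. The largest excess among the 15 motifs searched, picked after the values were seen, was CCGGAAG, the letters of ETS factors, in 31.1% of windows of proteasome genes and 6.91% of all. GGGCGG, the GC box, was in 51.1% and 32.7%. A match is a description of letters and not a shown binding site.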

How the data were processed

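Total RNA was sequenced from 8 libraries of cultured intraepithelial lymphocytes. Per the submitters' processing notes, Salmon was used. The Salmon version is not given in the sources used here, and neither are transcript release and build. For each library the authors deposited estimated counts, TPM and effective length (another deposited measure, in bases, per the file headers) for 133618 transcripts. Deposited estimated counts of a gene's transcripts were added up and rounded. Deposited TPM values were summed per gene and used only for levels and ratios between genes.

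Groups were compared with edgeR 4.0.16 in R 4.3.3 (quasi-likelihood F test, robust, two-sided, group as the only term; filterByExpr with minimum count 10; TMM). p-values were Benjamini-Hochberg adjusted over 18631 genes, with calls at 0.05. The steps were tested on simulated data. CPM are on TMM-scaled totals, and marker sums likewise. Alternatives included DESeq2 1.42.0, limma 3.58.1, other scalings, no filter, effective length as an offset, protein-coding transcripts only, and leaving out libraries. Same-named libraries deviated together in every pair (correlations 0.133 to 0.216 over 10616 genes), so the names were treated as pairing the libraries in an alternative with the name as a block. Gene positions come from GENCODE M21 (50 of 50 genes matched by identifier) and promoter windows from RefSeq GRCm38.p6. The members and lists were chosen with earlier results of these data known. Genes named are the catalytic subunits, Psme1, Psme2, Psmf1, Pomp, Nfe2l1 and Tap1, in each list those with the 2 lowest p-values and the highest and lowest TPM, and all members with groups apart or not tested. The text above does not give every gene of this rule. Some genes of these lists are not reported here and were left out of the lists' counts. Others were named after their values were seen.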

Additional observations from a re-analysis of the deposited data

Results flagged for a closer look

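In a group of 4 libraries, a value far from the other 3 was looked for in 144 groups of values (proteasome genes, named related genes and the ratios). It was found in 9, and chance alone marks about 1 group in 20. Among the proteasome genes, Psme2 was high in null library B (111 CPM, others 91.1 to 94.5), Psma2 high in null library 2 (94.8 CPM, others 86.8 to 87.5), Psmc1 high in osteopontin library B (114 CPM, others 96.1 to 98.8) and Psmb1 low in osteopontin library B (96.9 CPM, others 123.5 to 126.8). Among related genes, Erap1, a peptide-trimming enzyme, was high in null library 2 (111 CPM), and Vcp, the unfoldase that delivers substrates, was low in osteopontin library A (394 CPM). Mafg was high in null library A (121 CPM), Nfe2l1 high in osteopontin library B (163 CPM) and Nfe2l3 high in osteopontin library A (0.909 CPM).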

How the results depend on the processing

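No proteasome gene was called under any alternative run, with the replicate block included (0 of 49). The block changed no call. The number of genes called over the whole table was 0 in the reported fit, 41 with DESeq2 (12 higher, 29 lower), 4 without the filter (3 higher, 1 lower), 49 without both libraries named B (1 higher, 48 lower), and 0 to 37 when each library was left out in turn, the 37 without osteopontin library B. The cause of these differences was not tested. Of 987 log2 fold changes of 52 named genes under the alternatives, 914 kept their sign and 73, of 22 genes, changed it, none of them called. With effective length as an offset, sign changes gave Erap1 -0.26, Psmb10 0.0008, Psmc3ip 0.17, Psmd1 -0.023, Psmd14 0.14, Psmg1 0.11 and Tap1 -0.046. Without null libraries 1 and A, sign changes gave Erap1 -0.053, Jak1 -0.033, Nfe2l1 -0.032, Psma5 0.076, Psmb6 -0.033, Psmc3ip 0.19, Psmf1 -0.0015, Psmb8 over Psmb5 0.080 and Psmb9 over Psmb6 0.12. Over protein-coding transcripts only, sign changes gave H2-K1 0.0091, Psma5 0.0059, Psmb1 0.010, Psmf1 -0.022 and Psmb9 over Psmb6 0.048. With limma voom, sign changes gave Psma5 0.013 and Psmc3ip 0.93. Without both libraries named B, sign changes gave Psma7 0.0088, Psmb1 0.025, Psmb2 0.029, Psmb4 0.016, Psmb5 0.016, Psmb7 0.0042, Psmd1 -0.035, Psme4 -0.020, Psmf1 -0.049, Psmg1 0.11, Psmg2 0.060, Tap1 -0.0010 and Ube3c 0.061. With the replicate block, sign changes gave Psmc3ip 0.41. With the digit or letter of the name as a term, sign changes gave Psmc3ip 0.15. Leaving out 1 library at a time gave the ranges Erap1 -0.0023 to 0.13, H2-K1 -0.043 to 0.0016, Jak1 -0.0041 to 0.053, Nfe2l1 -0.015 to 0.12, Psma5 -0.093 to 0.070, Psma7 -0.025 to 0.026, Psmb1 -0.058 to 0.069, Psmb10 -0.054 to 0.0038, Psmb2 -0.10 to 0.015, Psmb4 -0.18 to 0.020, Psmb6 -0.028 to 0.12, Psmc3ip -0.47 to 0.29, Psmd1 -0.035 to 0.056, Psme4 -0.028 to 0.11, Psmf1 -0.055 to 0.062, Psmg2 -0.15 to 0.048, Tap1 -0.0068 to 0.042, Ube3c -0.11 to 0.025 and Psmb9 over Psmb6 -0.21 to 0.074. The cause was not tested. With 4 libraries a group, the interval reached past 20% lower or 25% higher for 18 of the 47 genes of at least 5 CPM, and the levels of Psmb11, Psma8 and Psmc3ip are too low to compare.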
